A study of Mus musculus with 4 samples.

Results

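The clustered histone genes and the genes of histone variants were examined in mouse cardiac progenitor cells treated with cucurbitacin I. The set was taken by name from the deposited gene table, as protein-coding genes whose symbols begin with Hist1h to Hist4h, H2af, H3f3 or H1f. It held 83 of 39179 gene identifiers, of which 68 were replication-dependent genes of the Hist clusters and 15 were variant genes. The cells were grown from a mouse embryonic stem cell line in which Gata6 is inducible; its product is a GATA transcription factor active in early heart and endoderm, and all 4 samples came from that line. In the DMSO group 2 samples were kept for 2 days in 0.1% of the solvent, and in the cucurbitacin I group 2 samples received the compound at 10 µM for the same time. The labels start the treatment on day 6 but differ on the harvest, given as day 8 in titles and as day 10 in the protocol for extraction. The compound, a triterpenoid from plants of the gourd family, is known to inhibit the JAK2 and STAT3 pathway. Since no label gives the libraries of a group as separate cultures, each p-value reflects only how far these samples spread, and that spread may be technical.

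Replication-dependent histone genes lie in clusters, have no introns as a rule and are transcribed in S phase, when new DNA has to be packaged. Their messenger RNAs are the only ones known in animals that usually end without a poly(A) tail: a stem-loop after the stop codon is bound by the stem-loop binding protein Slbp and cleaved just downstream. Variant histone genes are scattered through the genome, many have introns, their messenger RNAs carry a poly(A) tail, and they are transcribed outside S phase too. In several mammalian cell types some cluster genes are also known to give a longer, polyadenylated RNA when cells stop dividing and differentiate.

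The stem-loop was read from GENCODE M21 transcripts, because it separates the groups of genes compared here. A 16-base histone stem-loop was found within 150 bases after the stop codon in 41 of the 59 replication-dependent genes with an annotated coding transcript, in 1 of 15 variant genes, and in 0.234% of 21762 protein-coding genes. A gene without a match may have a transcript that is annotated only to its stop codon, and no match says nothing about binding of Slbp. In the 42 members with a match the motif began 22 to 59 bases after the stop codon and took 8 different forms, the commonest in 23 members. The examples below are 5 of the 7 tested cluster genes with a match (Hist1h1d and Hist1h2be are left out), the variant gene H2afx, and a cluster gene with few counts, Hist1h2bf, with the stem-loop in capitals and 5 bases on either side.
Hist1h1c: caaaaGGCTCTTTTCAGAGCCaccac
Hist3h2ba: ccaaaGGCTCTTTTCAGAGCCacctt
Hist3h2a: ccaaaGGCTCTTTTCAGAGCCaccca
Hist1h4i: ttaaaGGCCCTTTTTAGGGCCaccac
Hist2h3c2: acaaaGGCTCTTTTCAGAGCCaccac
H2afx: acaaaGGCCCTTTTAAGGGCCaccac
Hist1h2bf: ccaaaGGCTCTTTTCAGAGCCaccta
Hist1h1c, Hist3h2ba, Hist3h2a, Hist2h3c2 and Hist1h2bf share the same 16 bases, so these 16 bases alone do not set the tested examples apart from Hist1h2bf. They lie on GRCm38 at chr13:23739512-23739527 (plus strand), chr11:58949349-58949364 (plus), chr11:58955172-58955187 (plus), chr3:96238485-96238500 (minus) and chr13:23573765-23573780 (minus). Those of Hist1h4i and H2afx lie at chr13:22040966-22040981 (minus) and chr9:44335240-44335255 (plus).

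Total counts were 27069312 and 25573785 with DMSO, against 26773886 and 23759431 with the compound. Members gave 0.0548% to 0.181% of all counts, and the 68 replication-dependent genes 0.00722% to 0.00883%. Counts were tested with edgeR's quasi-likelihood test over all 16722 genes that passed a filter on low counts, and a call is a Benjamini-Hochberg adjusted p below 0.05. Levels are CPM, counts relative to library size, scaled by TMM factors, and fold changes are cucurbitacin I against DMSO on the log2 scale. Of the 83 members 21 passed the filter, and of these 10 were lower and 2 higher, while 9 missed the threshold. Over all genes 33.4% were called, 19.5% as lower and 13.9% as higher. The groups did not overlap in 17 of the 21 members and in 73.0% of all genes tested. Both treated libraries lay below both controls in 14 of the 21 members, against 37.4% of all genes tested.

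The variant genes fell, whereas the cluster genes that could be measured went both ways. Summed over the 15 variant genes, the level was at 1556 and 1208 CPM in DMSO and at 522 and 568 CPM in cucurbitacin I, 2.54-fold lower in the mean. Summed over the 68 replication-dependent genes, it was at 79.9 and 69.6 CPM in DMSO and at 79.2 and 93.1 CPM in cucurbitacin I, and the groups overlapped. The cluster sum stood at 5.13% and 5.76% of the variant sum in DMSO and at 15.2% and 16.4% in cucurbitacin I, a ratio that does not depend on scaling between libraries. Of the 10 variant genes tested 9 were lower and 0 higher (median log2 fold change -1.34), and of the 11 replication-dependent genes tested 1 was lower and 2 higher (median -0.25), where the median of all genes was -0.01. Without cucurbitacin I replicate 1 the median of the cluster genes was 0.08, without cucurbitacin I replicate 2 it was -0.63, and without DMSO replicate 2 it was -0.09. Of the 3 cluster genes called, Hist3h2ba and Hist2h3c2 passed the filter only through the group in which they were high, so their calls are given as a description. No test was made of the difference between the classes. In bulk RNA, fewer cells of a type and less RNA per cell cannot be told apart.

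**Figure D1:**
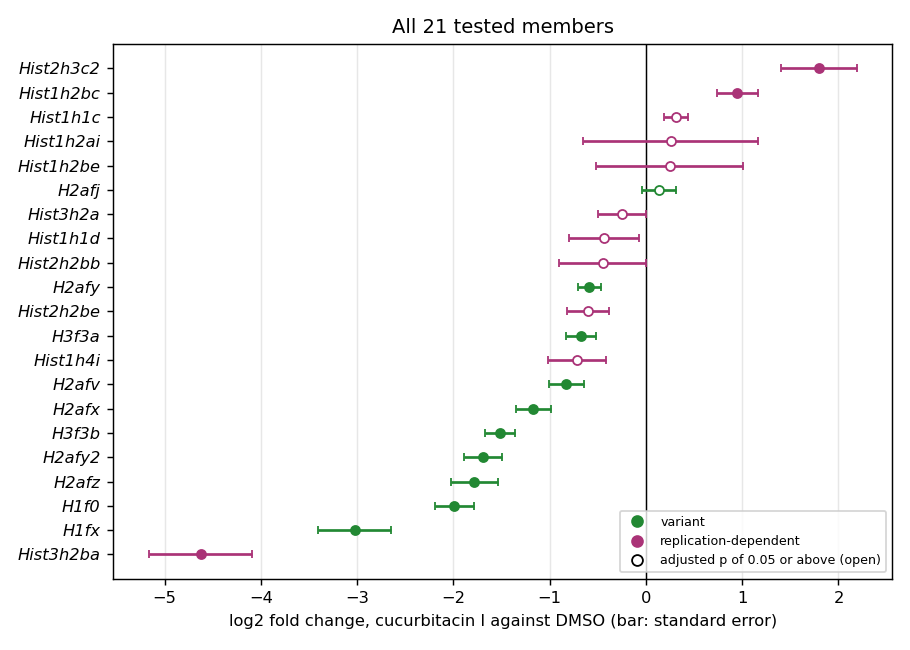
Log2 fold change of cucurbitacin I against DMSO (x axis) for each of the 21 tested members, with the standard error as a bar. Green points are variant genes and purple points replication-dependent genes, open where the adjusted p was 0.05 or above. Variant genes, apart from H2afj at 0.14, lie between -3.02 and -0.59, and the replication-dependent genes spread from -4.63 to 1.80. These ends are Hist3h2ba and Hist2h3c2, which passed the filter only through the group in which they were high. The other tested replication-dependent genes lie between -0.72 (Hist1h4i) and 0.95 (Hist1h2bc).

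Among linker histones, which bind the DNA between nucleosomes, both tested variant genes fell and the main cluster gene did not pass the test. H1f0 encodes the replacement linker histone of slowly dividing and differentiated cells (ENSMUSG00000096210, mm10 chromosome 15, 79028212 to 79030498). It was at 464 and 325 CPM in DMSO and at 91.1 and 107 CPM in cucurbitacin I, so both treated libraries lay below both controls. The log2 fold change was -1.99 (SE 0.20, edgeR adjusted p = 0.00359). H1fx, another linker variant, was at 51.7 and 30.3 CPM in DMSO and at 3.61 and 6.51 CPM in cucurbitacin I, 8.11-fold lower in the mean (log2 fold change -3.02, SE 0.38, edgeR adjusted p = 0.00563). Gm5577, protein-coding in the deposited table and typed as antisense in GENCODE M21, overlaps H1fx on the opposite strand and held 104% as many counts, at 34.9 and 28.6 CPM in DMSO and at 17.9 and 20.6 CPM in cucurbitacin I. The sources used here do not say whether counting used the strand, so reads of H1fx and Gm5577 cannot be told apart.

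Hist1h1c, the cluster gene with most counts, encodes a somatic linker histone (ENSMUSG00000036181, mm10 chromosome 13, 23738807 to 23740366). It was at 52.4 and 43.6 CPM in DMSO and at 56.1 and 63.1 CPM in cucurbitacin I. Both treated libraries were above both controls, but the log2 fold change of 0.31 (SE 0.13) did not pass (edgeR adjusted p = 0.118). The ratio of Hist1h1c to H1f0 counts within a library was 0.113 and 0.134 in DMSO and 0.615 and 0.587 in cucurbitacin I, 4.87-fold higher in the mean. Per kilobase of GENCODE M21 exon, H1f0 made up 74.7% of the summed linker histone level in each DMSO library and 52.8% and 53.0% in cucurbitacin I. Hist1h1c made up 11.1% and 13.2% in DMSO and 42.8% and 41.0% in cucurbitacin I, and H1fx made up 14.0% and 11.8% in DMSO and 3.53% and 5.42% in cucurbitacin I. These are shares of counted reads, and how fully RNAs without a poly(A) tail were counted is not known. The exon lengths may also differ from those of the annotation used for counting. The linker genes Hist1h1a, Hist1h1b and Hist1h1e had at most 7 counts in any library, and Hist1h1d (13 to 26 counts) did not pass at -0.43 (edgeR adjusted p = 0.4).

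The start regions of these linker genes are shown because H1f0 was called lower and Hist1h1c was not, a difference that was not tested. Each is RefSeq's 250 bases before to 50 after the start on GRCm38.p6, with exact matches in capitals to the CCAAT box (CCAAT), the H1 box (AAACACA), the octamer (ATTTGCAT) or the TATA box (TATAAA) on either strand.
Hist1h1c: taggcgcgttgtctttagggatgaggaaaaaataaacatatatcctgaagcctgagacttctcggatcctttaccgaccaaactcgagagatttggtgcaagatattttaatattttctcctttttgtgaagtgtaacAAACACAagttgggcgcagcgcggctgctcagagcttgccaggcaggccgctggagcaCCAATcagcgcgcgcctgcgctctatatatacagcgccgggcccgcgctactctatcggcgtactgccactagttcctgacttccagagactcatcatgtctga
H1f0: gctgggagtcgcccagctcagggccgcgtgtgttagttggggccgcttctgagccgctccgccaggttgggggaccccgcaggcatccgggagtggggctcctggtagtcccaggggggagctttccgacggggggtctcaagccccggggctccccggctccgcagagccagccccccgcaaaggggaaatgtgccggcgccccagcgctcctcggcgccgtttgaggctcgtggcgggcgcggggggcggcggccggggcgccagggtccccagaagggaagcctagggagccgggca
These are chr13:23738557-23738856 and chr15:79027962-79028261, both on the plus strand. That of Hist1h1c held an H1 box whose first base is 112 bases before the start and a CCAAT box at 54 bases, and that of H1f0 held none of the 4 motifs in these letters. RefSeq start regions were matched for 62 replication-dependent and 14 variant genes. The H1 box was in 5 of 6 cluster linker genes and in 0 of 4 linker variants, against 7.14% of 27025 promoters. The CCAAT box was in 85.5% of the cluster promoters, 64.3% of the variant ones and 37.9% of all. The octamer, known from H2B promoters, was in 13 of 62 cluster promoters, among them 6 of 16 of H2B genes and 7 of 18 of H2A genes, and in 1.75% of all. The TATA box was in 56.5% of cluster promoters, in 7.14% of variant ones and in 14.2% of all. H2A and H2B genes that lie head to head can share these bases.

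H3.3, the H3 variant placed into chromatin independently of replication, is encoded by H3f3a and H3f3b, and transcripts of both fell. H3f3b (ENSMUSG00000016559, mm10 chromosome 11, 116021912 to 116027962) was at 417 and 321 CPM in DMSO and at 134 and 124 CPM in cucurbitacin I (log2 fold change -1.52, SE 0.16, edgeR adjusted p = 0.00367). H3f3a was at 64.0 and 66.6 CPM in DMSO and at 34.7 and 47.0 CPM in cucurbitacin I (log2 fold change -0.68, SE 0.16, edgeR adjusted p = 0.0263). The groups did not overlap for either gene, and the ratio of H3f3b to H3f3a counts was 6.51 and 4.82 in DMSO and 3.86 and 2.63 in cucurbitacin I. H3f3a did not pass without DMSO replicate 1 (edgeR adjusted p = 0.098) or DMSO replicate 2 (0.094), and Gm17275, which overlaps it, held 11.9% as many counts.

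H2A.Z, a variant found at promoters, is encoded by H2afz and H2afv. H2afz was at 23.9 and 26.7 CPM in DMSO and at 5.65 and 9.04 CPM in cucurbitacin I, 3.44-fold lower in the mean (log2 fold change -1.78, SE 0.25, edgeR adjusted p = 0.00694). H2afv was at 145 and 136 CPM in DMSO and at 65.4 and 93.1 CPM in cucurbitacin I (log2 fold change -0.83, SE 0.18, edgeR adjusted p = 0.0211). Both fell without overlap, and the ratio of H2afv to H2afz counts was 6.06 and 5.11 in DMSO and 11.6 and 10.3 in cucurbitacin I. H2afv did not pass without DMSO replicate 1 (edgeR adjusted p = 0.095) or DMSO replicate 2 (0.059).

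The macroH2A genes H2afy and H2afy2 encode H2A variants with a large additional domain, linked to silent chromatin. H2afy was at 176 and 150 CPM in DMSO and at 113 and 104 CPM in cucurbitacin I (log2 fold change -0.59, SE 0.12, edgeR adjusted p = 0.0173), a call lost without DMSO replicate 1 (0.095). H2afy2 was at 110 and 76.5 CPM in DMSO and at 27.1 and 30.7 CPM in cucurbitacin I (log2 fold change -1.69, SE 0.20, edgeR adjusted p = 0.00472). Both macroH2A genes were lower in every treated library, and the ratio of H2afy to H2afy2 counts was 1.59 and 1.97 in DMSO and 4.18 and 3.37 in cucurbitacin I without overlap. Aifm2, which overlaps H2afy2, held 46.5% as many counts and was higher in both treated libraries (27.6 and 25.6 CPM in DMSO against 32.7 and 36.6 CPM in cucurbitacin I).

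H2afx encodes H2A.X, which is phosphorylated at DNA breaks, and is the variant gene with a stem-loop and with 822 annotated bases beyond it. It was at 94.1 and 66.2 CPM in DMSO and at 36.4 and 34.8 CPM in cucurbitacin I, a fall of 1.17 on the log2 scale (SE 0.18, edgeR adjusted p = 0.00898). H2afj, an H2A variant gene with polyadenylated RNA, was the variant gene that did not pass. It was at 10.7 and 9.50 CPM in DMSO and at 10.3 and 11.9 CPM in cucurbitacin I, and the groups overlapped (log2 fold change 0.14, SE 0.17, edgeR adjusted p = 0.572; -0.10 when scaled by library totals alone). The ratio of H2afj to H2afz counts was 0.448 and 0.356 in DMSO and 1.82 and 1.32 in cucurbitacin I. The other 5 variant genes, H1fnt, H1foo, H2afb1, H2afb2 and H2afb3, which are known from germ cells, had at most 4 counts in any library.

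**Figure D2:**
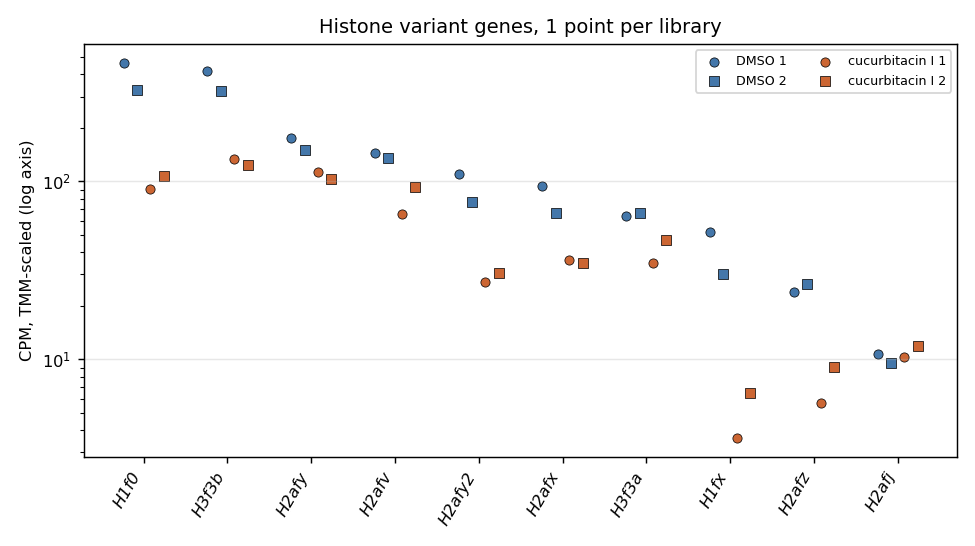
CPM (y axis, log scale) of the 10 tested variant genes in each library, DMSO in blue and cucurbitacin I in orange, with circles for replicate 1 and squares for replicate 2. The treated points lie below the DMSO points for each gene except H2afj, where they overlap.

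In each of the 6 within-library ratios computed (Hist1h1c to H1f0, Hist1h2bc to H2afz, H2afj to H2afz, H3f3b to H3f3a, H2afy to H2afy2 and H2afv to H2afz) the groups did not overlap. The pairs were chosen with earlier results of these data known. Some set a gene called lower against one that was not, and several share H2afz. The groups also did not overlap in 73.0% of all genes tested, so the ratios are given as a description. With 2 libraries against 2, the 2-sided exact permutation p was 0.333 for each ratio, also adjusted over the 6, and it is the smallest this design allows.

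The replication-dependent clusters gave few counts. Of the 68 genes 55 lie on chromosome 13, 10 on chromosome 3, 2 on chromosome 11 and 1 on chromosome 6. Over the 4 libraries together 46 had 10 or fewer counts and 13 had none. Taken alone, a library at 0 allows up to 3 counts, or 0.1 to 0.136 CPM, and 0 in all 4 allows fewer per library. Hist1h1c alone held 66.7% of the class's counts, and the 6 genes with most counts held 91.8%. Without Hist1h1c the class summed to 27.5 and 26.02 CPM in DMSO and to 23.2 and 30.0 CPM in cucurbitacin I, and the groups overlapped.

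Hist1h1c, Hist1h2bc and Hist2h2be, the cluster genes with most counts, had 880, 742 and 2192 annotated bases after the stop codon. Hist3h2ba, with 229 counts over the 4 libraries, had 213. Hist4h4 and Hist1h2ac had 2515 and 2058 such bases but only 12 and 30 counts. Hist2h3c1, Hist1h2bq and Hist1h2br, with 1213, 1608 and 1803 such bases, were at 0. Only 0.0%, 2.7% and 11.3% of their 50-base stretches were found in no other gene, so their counts are uncertain. The longest annotated stretch was 811 bases in the median of the 10 tested cluster genes with a coding transcript and 85 bases in the 49 not tested, and longer transcripts give more counts at the same level. Of those 10, 7 had a stem-loop and 6 a poly(A) signal (AATAAA or ATTAAA) in the last 50 bases of a transcript, and of the 49, 34 and 11. Past the stem-loop, 840 annotated bases followed in Hist1h1c, 1643 in Hist3h2a, 330 in Hist1h4i and 169 in Hist3h2ba, against 29 in Hist1h2bf. Hist1h2bc is annotated with 2 exons, and no stem-loop was found in that transcript. The sources used here do not say whether poly(A) RNA was selected. The 6 listed RNAs without a poly(A) tail (Rn7sk, Rmrp, Rpph1, Terc, Rny1 and Rny3) together had 5 to 20 counts per library. The part of tailless RNA in the counts of cluster genes was not tested.

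Many cluster genes share sequence with near-identical copies, and no source used here says how reads that match several genes were counted. Of the 61 replication-dependent genes found in GENCODE M21, 29 had under 50% of their 50-base stretches in no other gene, with a median of 50.5%, against 94.5% over the 15 variant genes. Of the 12 such genes at 0 in all libraries, 10 were under 50%. Among them Hist2h3c1 had 0.0%, so its reads would match another gene as well. Hist1h2aa was at 0 with 97.7%, and it is 1 of 3 testis-type genes of the clusters. These 3 (Hist1h1t, Hist1h2aa and Hist1h2ba) are counted among the 68 replication-dependent genes. The part of shared sequence in the low counts was not tested.

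**Figure D3:**
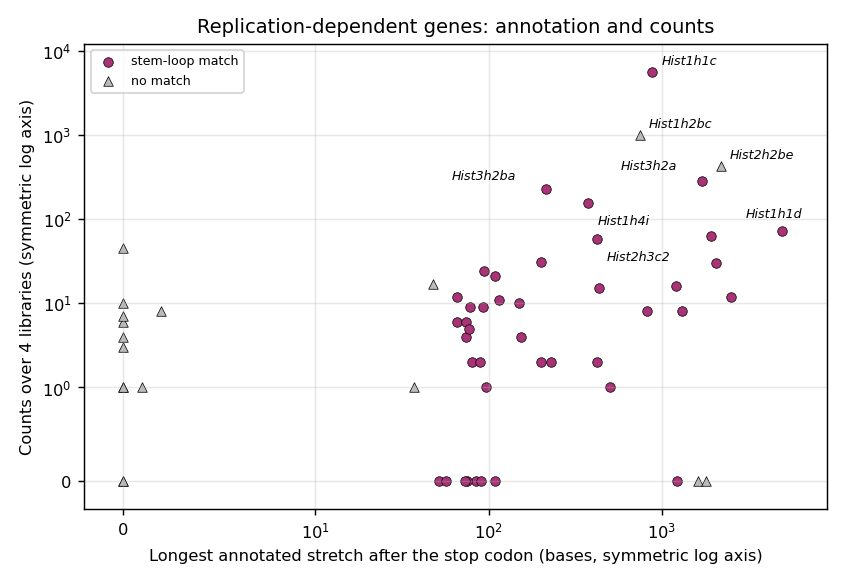
Counts over the 4 libraries (y axis) against the longest annotated stretch after the stop codon (x axis) for the 59 replication-dependent genes with a coding transcript, both on symmetric log axes that include 0. Circles have a stem-loop match and triangles none. Hist1h1c (5516 counts), Hist1h2bc (994) and Hist2h2be (424) have 880, 742 and 2192 annotated bases after the stop codon.

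Hist1h2bc, Hist2h3c2 and Hist3h2ba were the cluster genes called. Hist1h2bc encodes a core histone H2B (ENSMUSG00000018102, mm10 chromosome 13, 23684199 to 23692488). It was at 7.12 and 6.44 CPM in DMSO and at 11.2 and 15.04 CPM in cucurbitacin I, 1.94-fold higher in the mean (log2 fold change 0.95, SE 0.21, edgeR adjusted p = 0.0226). With either DMSO library left out the edgeR adjusted p was 0.09 and 0.096, without cucurbitacin I replicate 2 it was 0.057 and with library totals 0.053, so the call was lost while the sign stayed. Its ratio to H2afz counts was 0.298 and 0.242 in DMSO and 1.98 and 1.67 in cucurbitacin I. Hist2h3c2, a gene for the core histone H3, had 9 and 6 counts in DMSO and 23 and 20 in cucurbitacin I (log2 fold change 1.80, SE 0.39, edgeR adjusted p = 0.0223). With DESeq2 as run here on the filtered genes it did not pass (adjusted p = 0.093), nor with any 1 of the 4 libraries left out in edgeR. In the authors' deposited table it was higher (adjusted p = 0.0043 there). It reached the filter's minimum of 10 counts only in the treated libraries, so it was tested only because it was high there. Of its 50-base stretches 36.5% were its own, so its counts are uncertain.

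Hist3h2ba, an H2B gene of the small chromosome 11 cluster (ENSMUSG00000056895, mm10, 58948911 to 58949532), had the lowest log2 fold change of the tested members. It had 143 and 79 counts in DMSO and 2 and 5 in cucurbitacin I, a log2 fold change of -4.63 (SE 0.54) and a ratio of scaled counts of 25.8 (exact 95% binomial interval 12.3 to 65.0, which covers counting error only; edgeR adjusted p = 0.00484). It reached the filter's minimum only in the DMSO libraries, so it was tested only because it was high there. Its neighbour Hist3h2a, an H2A gene, had 84 and 83 counts in DMSO and 65 and 50 in cucurbitacin I and did not pass (log2 fold change -0.25, SE 0.25, edgeR adjusted p = 0.472). The difference between these neighbours was not tested, and Trim17, which overlaps Hist3h2a, held 21.3% as many counts.

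The remaining tested cluster genes did not pass. Hist2h2be, an H2B gene, was at 4.74 and 4.93 CPM in DMSO and at 2.99 and 3.39 CPM in cucurbitacin I (log2 fold change -0.60, SE 0.22, edgeR adjusted p = 0.086), and it passed with library totals (0.036). Hist1h4i, an H4 gene, had 50 and 53 counts in DMSO and 24 and 27 in cucurbitacin I (log2 fold change -0.72, SE 0.30, edgeR adjusted p = 0.122). In both genes every treated library was below every control. Hist2h2bb (26 and 13 counts in DMSO against 11 and 12), Hist1h2be (8 and 24 against 8 and 23) and Hist1h2ai (13 and 10 against 2 and 20) overlapped between groups. Gm20628, which overlaps Hist2h2bb, held 40.3% as many counts. The sign of Hist1h2be turned without DMSO replicate 1 (-0.39) or cucurbitacin I replicate 2 (-0.78), and that of Hist2h2bb without DMSO replicate 1 (0.051). By histone type, the 12 clustered H3 genes together had 28 and 29 counts in DMSO and 30 and 33 in cucurbitacin I. The 13 H4 genes had 71 and 76 counts in DMSO and 36 and 40 in cucurbitacin I, of which Hist1h4i gave most.

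**Figure D4:**
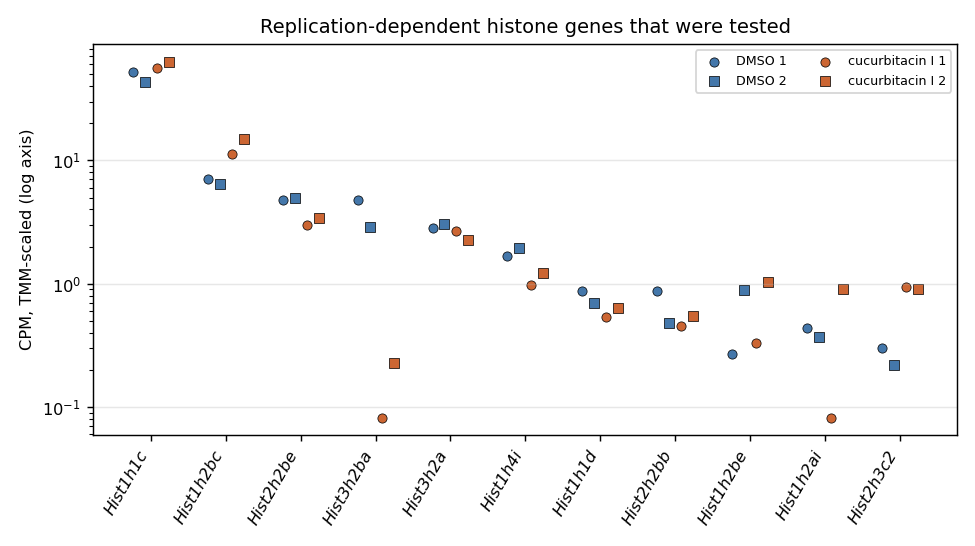
CPM (y axis, log scale) of the 11 tested replication-dependent genes in each library, DMSO in blue and cucurbitacin I in orange, with circles for replicate 1 and squares for replicate 2. Hist1h1c stands at 43.6 to 63.1 CPM, Hist3h2ba drops to 0.082 and 0.226 CPM under treatment, and Hist1h2bc and Hist2h3c2 lie higher in both treated libraries.

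In the authors' deposited table, 41 members had an adjusted p, and 11 were lower and 2 higher at 0.05, where that table called 38.4% of its genes. There Hist2h2be was lower as well (adjusted p = 0.016 in the authors' deposited table). The 2 higher were Hist1h2bc and Hist2h3c2 (adjusted p = 0.00036 and 0.0043 in the authors' deposited table).

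Genes that supply histones moved unevenly. Of 58 listed genes 23 were lower and 1 higher, against 19.5% and 13.9% of all genes. Without DMSO replicate 1 the counts were 10 and 0, and without DMSO replicate 2 they were 14 and 0. Of 6 genes for transcription of the clusters 5 were lower. On the log2 scale Ccne1 and Ccne2, the E cyclins, were at -0.76 and -0.54, and the coilin gene Coil at -0.61. Cdk2, the kinase of the E cyclins, was at -0.29 (edgeR adjusted p = 0.049) and Casp8ap2 at -0.38 (0.046). Both lay just under the threshold, and their calls with a library left out are not given here. Npat, the coactivator of histone transcription in S phase, was at 48.1 and 47.7 CPM in DMSO and at 55.6 and 51.6 CPM in cucurbitacin I and did not pass (log2 fold change 0.16, edgeR adjusted p = 0.236; -0.073 with library totals). Ccne1 lost its call without DMSO replicate 1 (0.065), Ccne2 without any library in turn (0.086 to 0.19), and Coil without either DMSO library (0.15 and 0.081) or cucurbitacin I replicate 1 (0.079).

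Of 12 genes of histone RNA 3′ end formation 1 was lower and 0 higher, a share below the 19.5% of all genes called lower. This was Slbp, the stem-loop binding protein gene, at 46.4 and 45.0 CPM in DMSO and at 24.5 and 26.8 CPM in cucurbitacin I (log2 fold change -0.83, SE 0.11, edgeR adjusted p = 0.00578). Lsm10 and Lsm11, parts of the U7 snRNP that guides the cut, did not pass (0.36 and 0.15 on the log2 scale), nor did the nuclease gene Cpsf3 (0.09). Among 6 genes of histone RNA translation and decay, the uridylyl transferase gene Zcchc6 rose by 0.36 and the related Zcchc11 fell by 0.43 on the log2 scale. The call of Zcchc6 was lost without any library in turn (adjusted p = 0.056 to 0.19) and with library totals (0.35), and that of Zcchc11 without either DMSO library (0.11 and 0.08) or cucurbitacin I replicate 1 (0.069).

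Of 13 replication-coupled chaperone genes 6 were lower and 0 higher, where 19.5% of all genes were called lower and 13.9% higher. The subunits of chromatin assembly factor, which loads new H3 and H4 behind the replication fork, were among them: Chaf1b fell by 1.42 (SE 0.13, edgeR adjusted p = 0.00275) and Chaf1a fell by 1.10 on the log2 scale. Mcm2, a replicative helicase subunit that also binds H3 and H4, fell by 1.14, Asf1b fell by 0.92 and Nasp fell by 0.79. Of 15 chaperone and exchange genes for variants 6 were lower and 0 higher. Among them, genes that serve the centromeric H3 variant were lower: Oip5 fell by 1.37 and Hjurp fell by 1.09 on the log2 scale, and Mis18a was at -1.03 (edgeR adjusted p = 0.0116). Cenpa, which encodes that variant, was at 66.3 and 61.3 CPM in DMSO and at 13.2 and 20.9 CPM in cucurbitacin I (log2 fold change -1.91, SE 0.22, edgeR adjusted p = 0.00497).

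Of the H3.3 chaperone genes, Hira did not pass at -0.15 (edgeR adjusted p = 0.362), nor did Cabin1, Ubn1, Ubn2 or Atrx, while Daxx was lower at -0.48 (0.0148). Anp32e, a chaperone that removes H2A.Z, was lower at -0.64 (0.0299). Of 5 general chaperone genes 3 were lower, Npm1 by -0.70 and the FACT subunits Ssrp1 and Supt16 by -0.60 and -0.47 on the log2 scale. These calls were lost without DMSO replicate 1 (adjusted p = 0.054, 0.085 and 0.15), and that of Supt16 without any other library as well (0.051 to 0.079). Of 18 DNA replication genes 17 were lower and 0 higher, against 19.5% and 13.9% of all genes. Tyms (-1.64), Lig1 (-1.10) and Rrm2 (-1.54) had the lowest adjusted p among them.

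**Figure D5:**
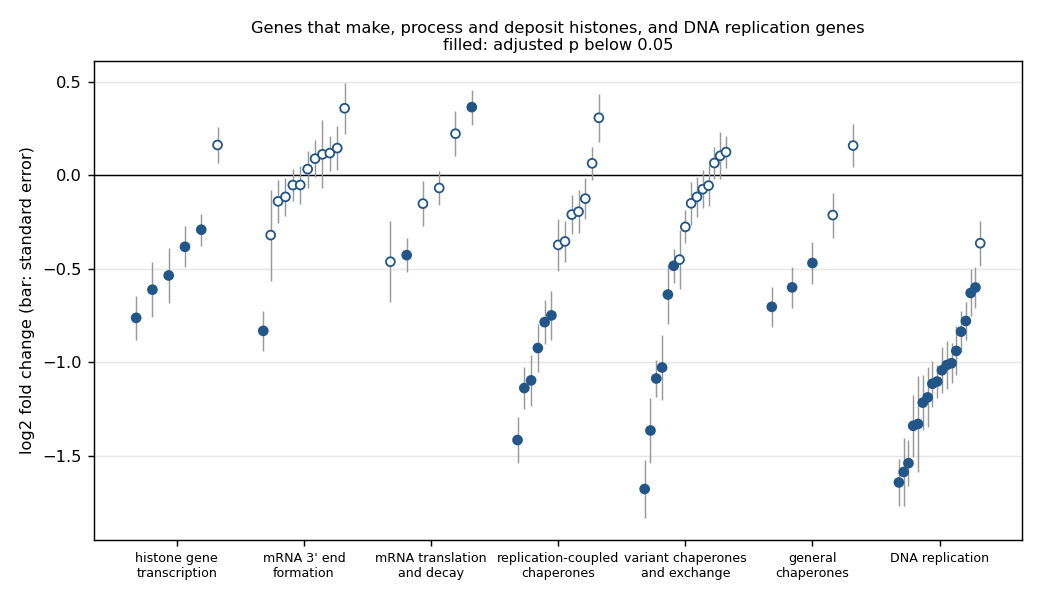
Log2 fold change (y axis) with its standard error for each gene of 6 lists of histone supply and of the DNA replication list (x axis), filled where the adjusted p was below 0.05. The DNA replication genes lie below 0 throughout, and the genes of 3′ end formation, apart from Slbp at -0.83, lie between -0.32 and 0.36.

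The treated libraries also differed in markers of other cell types. Over all genes tested 19.5% were called lower and 13.9% higher. All 6 endoderm markers were lower (summed level 486 and 768 CPM in DMSO against 3.77 and 5.65 CPM in cucurbitacin I, with Alb at 0 in cucurbitacin I replicate 2). Of 6 blood markers 5 were lower (398 and 501 against 31.9 and 57.0 CPM, with Ptprc at 0 in cucurbitacin I replicate 2), and of 5 endothelial markers 3 were lower (114 and 134 against 20.5 and 25.9 CPM, with Emcn at 0 in both treated libraries). All 4 smooth muscle markers were higher (3626 and 5276 against 34340 and 25550 CPM), as were 4 of 6 cardiomyocyte markers (5538 and 6628 against 11060 and 13940 CPM). The 6 cardiomyocyte markers (Tnnt2, Actn2, Myh6, Ttn, Nkx2-5 and Tnni1) were counted in every library. Of these, Myh6 and Nkx2-5 did not pass (edgeR adjusted p = 0.115 and 0.207). Csf1r of the blood markers (0.45) and Cdh5 and Tek of the endothelial ones (0.0719 and 0.15) did not pass either. Alb, Apoa1, Sox17, Ptprc and Emcn reached the filter's minimum only in the DMSO libraries. They were tested only because they were high there, so their calls are given as a description. The part of these cell types in the changes of histone genes was not tested.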

How the data were processed

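Per the labels' protocols, total RNA of 4 samples went into TruSeq libraries for sequencing. STAR 2.3.0e, HTSeq 0.6.0 and mm10 are named in the submitters' processing notes; no source used here gives the annotation release, strand setting or poly(A) selection. The authors deposited whole-number counts per gene and library, a normalized signal (count over 1 size factor per library), and their comparison's log2 fold change, p-value and adjusted p-value, per the file headers. The deposited table's repeat lines for human orthologs were dropped (4195 of 43374).

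R 4.3.3 and edgeR 4.0.16 were used to filter (filterByExpr, with 10 as the minimum count), scale (TMM) and test the counts (glmQLFit and a 2-sided glmQLFTest) with Benjamini-Hochberg adjustment at 0.05. Standard errors were computed as the absolute log2 change over √F. The median standard error over genes was 0.17. Replicates differed beyond sampling noise (chi-square of 24.4 and 33.9 for each degree of freedom). Stem-loops, exon lengths and 50-base uniqueness came from GENCODE M21, which lacks 7 of the 83 members by identifier, and promoters from RefSeq GRCm38.p6.

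Members, lists and tests were chosen with earlier results of these data known. Values are given for every tested variant gene, the 10 cluster genes of highest CPM, their 3 largest rises and falls, and up to 4 called genes per list (3 in the more frequent direction, 1 in the other), plus Slbp, Npat, Cenpa and Hira. Other names were chosen after their values were seen. A gene that this rule names is not reported here. Alternatives were DESeq2 1.42.0, limma-voom (limma 3.58.1), other scalings, filters, thresholds and class limits, a fit without the 20 genes of highest abundance, a replicate block, and each library left out (which assumes that a lone library varies as much as the other group).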

Additional observations from a re-analysis of the deposited data

How the results depend on the processing

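Between 6 and 9 variant genes were lower, and 0 higher, under the alternatives run. Scaled by library totals alone, the median of all genes moved from -0.01 to -0.24. There the variant median was -1.58 and the cluster median -0.48, 1 cluster gene was higher and 2 lower, 0 supply genes were higher, 1059 genes in all were higher, and the log2 ratio of summed levels was -0.030 for the cluster genes and -1.58 for the variants (0.21 and -1.34 with TMM). H2afj (-0.10) and Npat (-0.073) turned sign there. With DESeq2, and among genes averaging at least 50 counts, 1 cluster gene was higher. Without a filter the variant median was -1.001. With H2afx counted as replication-dependent, 2 cluster genes were lower. At a threshold of 0.01, 0 cluster genes were higher, 12 supply genes lower and 0 higher, and 492 genes in all higher and 1262 lower.

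Leaving out each library in turn, 0 to 1 cluster genes were higher, and their median ran from -0.63 to 0.076. The variant median ran from -1.55 to -1.10 and the variant log2 ratio of summed levels from -1.51 to -1.15. Supply genes lower ran from 10 to 21, with 0 higher. All genes ran from 389 to 2109 higher and from 1461 to 3001 lower. Hist1h2be ran from -0.78 (without cucurbitacin I replicate 2) to 1.32 (without DMSO replicate 2), with -0.39 without DMSO replicate 1, and Hist2h2bb from -0.80 (without DMSO replicate 2) to 0.051 (without DMSO replicate 1).

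Replicate numbers are shared between groups, but no label says that they pair the samples. Over the genes tested, deviations of the replicate 1 libraries from their group means correlated at 0.24. Those of replicate 2 are their mirror image and add nothing. With the replicate number as a block, the calls were 2 higher and 1 lower cluster gene, 9 lower variant genes, and 2660 higher and 3707 lower genes in all. Over 41 genes and all alternatives, 475 values kept their side of the threshold and their sign, 47 lost their call, 1 gained it and 5 turned sign; the cause was not tested. The 62 members that were not tested had 35 or fewer counts each over the 4 libraries and did not pass the filter on low counts. Some of them were tested in the fit without a filter and in the authors' comparison.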
